A study of Mus musculus with 3 samples.

Results

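Interferon-stimulated genes are genes whose transcription rises when a cell receives interferon. The 39 examined here, of 27998 genes counted, were listed by name and were chosen by their UMI counts in these same data, in which their levels in the young library had been seen to exceed those of the old and control libraries. Their differences between the young library and the others are therefore given as a description. Cells were CD133+ cells sorted from bone marrow of C57BL/6 mice, and 3 libraries were made with the 10x Chromium 3' kit. The control and young libraries carry an age of 3 months (label "3m"). The old library is labelled 27 months ("27m"), while the design text of the series gives 18.5 months for the old mice. No treatment, genotype or transgene is named for any of the 3 groups, and what sets the control apart from the young library beyond its title "Ctrl" is not stated in the labels. The young and old libraries come from 3 mice each, and the methods describe another CD133+ sort from 3 mice whose cell number is that of the control library. The cells of a condition are in 1 library with no map to mice. No test between conditions can be made, and every interval below covers counting error only.

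Type I interferons bind the receptor chains IFNAR1 and IFNAR2, and the kinases JAK1 and TYK2 then act on STAT proteins. STAT2 and IRF9 are parts of the complex ISGF3, which binds the interferon-stimulated response element (ISRE) in promoters of target genes. Interferon gamma acts through another receptor and on another element, the gamma-activated site (GAS). The targets include nucleic acid sensors, antiviral effectors and the transcription factor IRF7, which drives further interferon production. In bone marrow, interferon is known to bring quiescent stem cells into cycle and to raise the output of myeloid cells.

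The ISRE is shown in 6 members that hold it in the 250 bases before the start and have large folds or high levels, because these letters are the sequence feature that the rule did not use. Stretches are from the RefSeq promoter table of GRCm38.p6, written 5' to 3' along the strand of the gene. Capitals mark GAAANNGAAA or its reverse complement TTTCNNTTTC, with N for any base.

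Isg15: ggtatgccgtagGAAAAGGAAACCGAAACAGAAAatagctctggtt

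Oas1a: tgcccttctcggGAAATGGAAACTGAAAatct

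Bst2: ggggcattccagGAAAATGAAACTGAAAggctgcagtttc

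Ifit1: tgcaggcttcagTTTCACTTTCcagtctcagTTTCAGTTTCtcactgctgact

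Ifit3: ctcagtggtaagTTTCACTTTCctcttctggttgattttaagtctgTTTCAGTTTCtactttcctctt

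Rsad2: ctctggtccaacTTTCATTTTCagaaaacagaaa

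The stretch of Isg15 lies at chr4:156200863-156200908 on the minus strand and holds 3 overlapping matches. That of Oas1a lies at chr5:120907526-120907557 on the minus strand, and that of Bst2 at chr8:71537575-71537614 on the minus strand, each with 2 overlapping matches. Ifit1 has 2 separate matches at chr19:34640773-34640825 on the plus strand, and Ifit3 has 2 at chr19:34583361-34583428 on the plus strand. Rsad2 has 1 match at chr12:26456551-26456584 on the minus strand. All 6 stretches end before the annotated start of the gene. Of the 39 members, 30 had an entry in the table, and 13 of these (43.3%) held the ISRE letters on either strand in the 250 bases before a start. Over all genes of the table, 936 of 27025 (3.46%) did, and 978 of 32851 promoters (2.98%). The other members with a match were Stat2, Oas3, Slfn5, Trim30a, Igtp, Irgm1 and Gbp2. Of these, Stat2 and Trim30a had small folds of young over old. Irf7, Oasl1, Oasl2, Xaf1, Ifi44 and Lgals3bp had large folds and an entry but no match. The GAS letters TTCNNNGAA were in 5 of the 30 members (16.7%), which were Bst2, Ifit2, Igtp, Isg20 and Oas1a, beside 8.13% of all genes and 7.02% of promoters. The match in Bst2 shares bases with its ISRE. Dhx58, Zbp1, Usp18, Parp9, Parp14, Oas2, Mx1, Ifi27l2a and Rtp4 had no entry. Matches are descriptions of letters and not of binding.

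Several members are neighbors in the GENCODE M21 annotation of GRCm38. Ifit2 (34550694 to 34576419), Ifit3 (34583531 to 34588731) and Ifit1 (34640871 to 34650009) lie on chromosome 19. Oas2, Oas3 and Oas1a lie between 120730333 and 120907521 on chromosome 5, and Oasl2 and Oasl1 between 114896936 and 114937915 on the same chromosome. Rsad2 and Cmpk2 are adjacent on chromosome 12, and Parp9 and Dtx3l overlap on opposite strands of chromosome 16 (35938470 to 35939151). In all, 12 members overlap another counted gene. Reads of near-identical relatives (Oas1a and Oas1g, Ifit3 and Ifit3b, Trim30a and its tandem copies) may have been lost or split in counting. Their values are less certain for that reason.

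The kept cells numbered 9780 in the control, 7378 in the young and 9681 in the old library, with 74708327 to 119588365 UMIs per library and median UMIs per cell of 9560.5 (control), 10174.5 (young) and 12690 (old). A UMI is a tag that marks 1 captured mRNA molecule, and a level is the number of UMIs of a gene for every 1000000 counted in those cells (CPM). A count of 0 UMIs allows up to 0.0251 CPM in the old, 0.0313 in the control and 0.0402 in the young library (3 counts). Genes of the neutrophil lineage (Elane, Mpo, Camp, Ngp and others) made up 107730 to 126943 CPM in the 3 libraries, whereas 5 endothelial markers summed to 1.79 to 4.34 CPM, so that the cells carried neutrophil precursor transcripts and few endothelial ones. Prom1, which encodes CD133, stood at 43.8 to 52.6 CPM. The young library stood apart in its cell make-up. Monocyte-like cells (at least 6 UMIs of Ms4a6c, Csf1r and F13a1 together) were 429 of its cells (5.81%), 63 of the old (0.651%) and 38 of the control cells (0.389%). Summed markers were also higher in the young than in the old and control libraries for dendritic cells (264 against 14.5 and 24.2 CPM), basophils and mast cells (374 against 52.9 and 90.4 CPM) and B progenitors (97.5 against 5.84 and 12.9 CPM). Because these cells move with the result, the sums and some of the members are given with and without them. Other members are given over all kept cells only. Barcodes shared between libraries numbered 120 (young and old), 125 (young and control) and 161 (old and control).

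The 39 genes together stood at 260 CPM (257 to 263) in the control library, 2289 CPM (2278 to 2300) in the young library and 249 CPM (246 to 251) in the old library. The young level was 9.21-fold that of the old library (9.09 to 9.32) and 8.80-fold that of the control library (8.68 to 8.91), although control and young mice carry the same age in their labels. Ifi27l2a alone made up 33.1% of the member UMIs in the young, 3.71% in the old and 6.11% in the control library. The ratios of the sums were not computed without it. Every member was higher in the young than in the old library, with a median log2 ratio of 3.06 and a range from 0.40 (Dtx3l) to 8.76 (Ifi44). The median log2 ratio was 0.15 over all 5761 genes that reached 10 CPM in young or old cells. All 39 were also higher in the young than in the control library, with a median log2 ratio of 2.96 beside 0.06 over 5728 genes, and 38 of the 39 intervals lay above 0. The exception was Dtx3l, an E3 ubiquitin ligase, at 7.88 CPM in the control and 8.46 CPM in the young library, and its ratio turned negative without monocyte-like cells (log2 -0.02). Both comparisons share the young library and are not separate evidence.

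**Figure D1:**
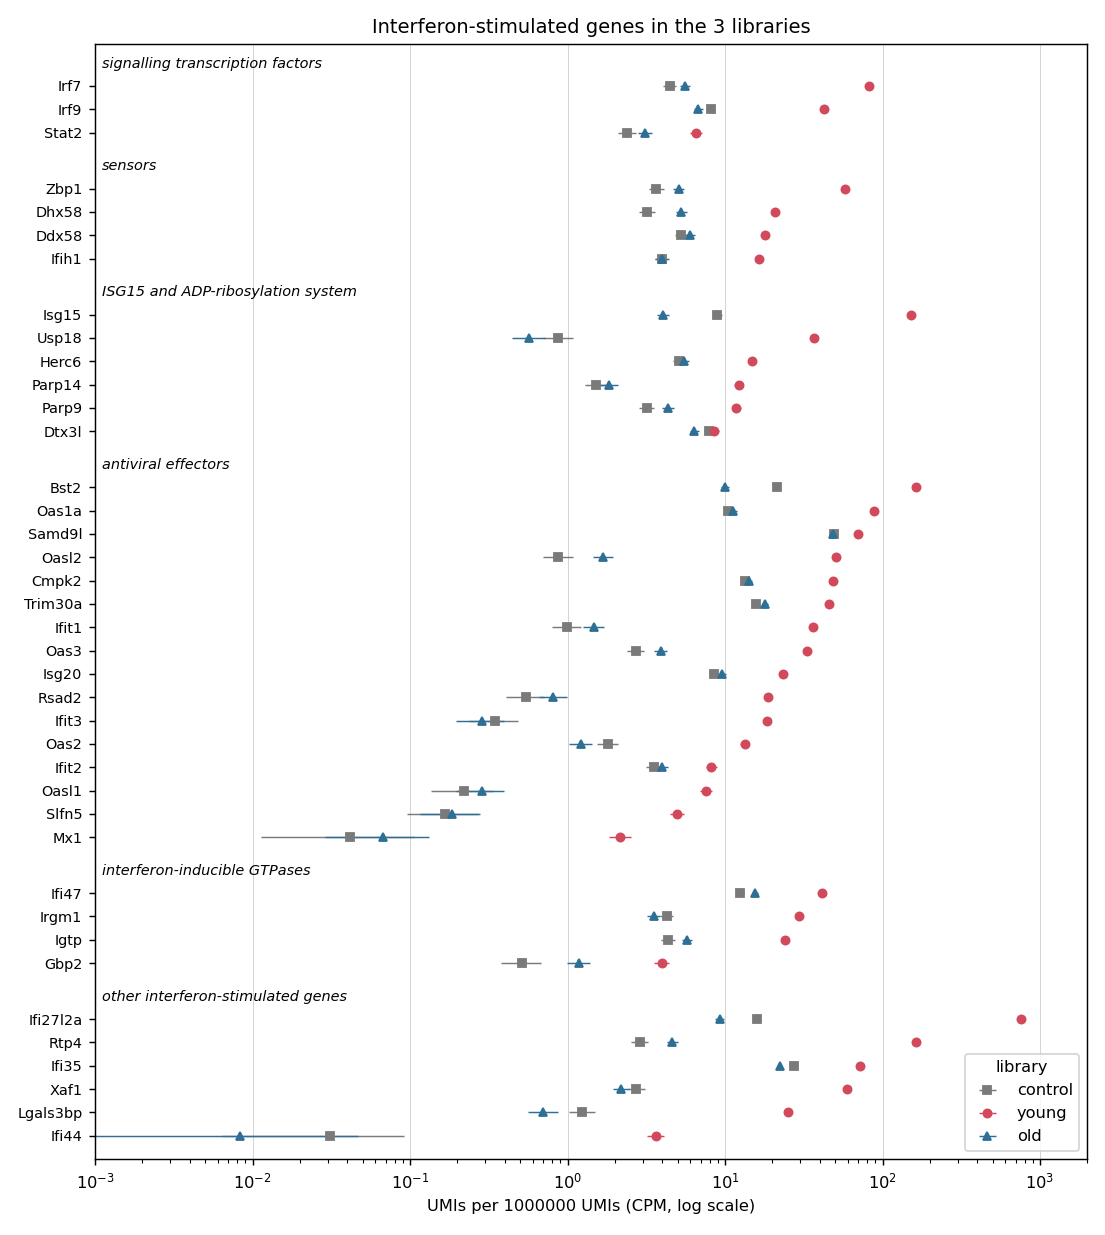
Level of each of the 39 interferon-stimulated genes in the control (squares), young (circles) and old (triangles) libraries, in UMIs per 1000000 UMIs on a log axis, grouped by role, with 95% exact intervals for counting error (the lower end for Ifi44 in the old library, 1 UMI, runs off the axis). The young circle lies to the right of the other symbols in each row, from 757 CPM for Ifi27l2a to 2.16 CPM for Mx1, while the control and old symbols lie near each other.

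In the counts with a limit of size, 31 members reached 10 CPM in young or old cells, and 30 of them were at least 1.5-fold higher in the young library. This limit was passed upward by 14.7% of all genes tested and downward (higher in old than in young) by 4.36%, and by no member downward. Against the control library 30 of 31 members passed the limit upward, beside 6.62% of all genes, and none downward, beside 1.59%. Since the members were chosen on these values, nothing is read from the difference to the other genes. Moreover, 25 of the 31 reached 10 CPM only through the young library in the comparison with old, and 23 of 31 in the comparison with control, so these had to differ. Of the 6 members at 10 CPM or more in the old library itself (Oas1a, Cmpk2, Samd9l, Trim30a, Ifi47 and Ifi35), 5 passed the limit. Samd9l did not.

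The transcription factors of the pathway were all higher in the young library. Irf7 stood at 4.46 CPM in the control, 81.6 CPM in the young and 5.57 CPM in the old library, 14.6-fold above old. Irf9, the DNA-binding subunit of ISGF3, stood at 8.11, 42.2 and 6.78 CPM in the same order, 6.22-fold above old. Stat2, its STAT partner, stood at 2.40, 6.55 and 3.10 CPM, 2.11-fold above old. For each of the 3 factors the control and old levels lay close together and below the young level. Without monocyte-like cells the young level was 58.0 CPM for Irf7, 40.0 CPM for Irf9 and 5.46 CPM for Stat2, and 32.6% of the young Irf7 UMIs came from the 429 monocyte-like cells.

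Of the 4 nucleic acid sensors, Zbp1 had the highest young level. Zbp1, a sensor of left-handed nucleic acids that can start necroptosis, stood at 3.67 CPM (control), 57.7 CPM (young) and 5.08 CPM (old), 11.4-fold above old. Ddx58, which encodes the RNA sensor RIG-I, stood at 5.24, 17.8 and 5.98 CPM in that order. Its relatives Ifih1 (MDA5) and Dhx58 (LGP2) stood at 3.96, 16.4 and 3.96 CPM and at 3.20, 20.6 and 5.27 CPM. The 3 RNA sensors of this family were thus 2.98-fold (Ddx58), 4.14-fold (Ifih1) and 3.92-fold (Dhx58) above the old library. From 7.96% (Ddx58) to 20.7% (Zbp1) of the young UMIs of a sensor came from monocyte-like cells.

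In the ISG15 system, Isg15 and its protease were far apart from the other members in fold. Isg15, a ubiquitin-like modifier, stood at 8.92 CPM (control), 153 CPM (young) and 4.05 CPM (old), 37.7-fold above old and 17.1-fold above control. Usp18, which removes ISG15 from proteins and dampens receptor signaling, stood at 0.875, 36.7 and 0.569 CPM, 64.5-fold above old. Herc6, the mouse ligase that attaches ISG15, was 2.71-fold above old. The ADP-ribosyltransferases Parp9 and Parp14 were 2.70-fold and 6.63-fold above old, and Dtx3l, the partner of PARP9, was 1.32-fold above old. Parp9 and Dtx3l, which overlap at their starts, thus differed in fold.

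Among the 16 antiviral effectors the folds over old ran from 1.44 (Samd9l) to 65.2 (Ifit3). Oas1a, which encodes a synthase of the second messenger that activates RNase L, stood at 10.4 CPM (control), 87.7 CPM (young) and 11.2 CPM (old). The relatives Oas2, Oas3, Oasl1 and Oasl2 differed in fold, with 8.52 (Oas3), 26.6 (Oasl1) and 30.0 (Oasl2) over old, and Oas2 stood at 1.80, 13.3 and 1.21 CPM. Oasl2 stood at 0.875, 50.5 and 1.68 CPM. Bst2 (tetherin), which holds budding virions at the cell surface, stood at 21.4, 162 and 9.98 CPM and was 16.3-fold above old and 7.60-fold above control. The control level of Bst2 was itself above the old level. Samd9l, a restriction factor of poxviruses, stood at 49.4, 69.8 and 48.6 CPM and was the highest member of all in the control and old libraries. Neighbors differed widely. Ifit1 and Ifit3, which bind viral RNA or its binding proteins, were 24.7-fold and 65.2-fold above old (23.4-fold and 40.1-fold without monocyte-like cells, which held 43.1% of the young Ifit3 UMIs), whereas Ifit2 beside them was 2.06-fold above old. Rsad2 (viperin) was 23.2-fold above old and the adjacent kinase gene Cmpk2 3.44-fold. Isg20 (2.42-fold), an exonuclease, and Trim30a (2.55-fold) were among the lower folds. Slfn5 and the GTPase Mx1 were low in the sums over all cells of each library, with 4.94 and 2.16 CPM in the young one, but stood at 52.6 and 30.9 CPM in young monocyte-like cells. Mx1 had 161 UMIs in the young, 8 in the old and 4 in the control library, and 73.9% of the young ones came from monocyte-like cells. Its fold over old was 32.2, and 17.6 without them.

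The old level of Ifit1 rested largely on 1 cell. Of the 175 Ifit1 UMIs of the old library, 106 were in a single cell with 15352 UMIs, 97 of them from Mpo, and the next highest cell had 4. This cell held 39 UMIs of other members. Without it the old level of Ifit1 was 0.577 CPM instead of 1.46, below the control level of 0.990 CPM, and the fold of young over old was 62.6 instead of 24.7. The same step moved no other fold by more than 1.5 times, and left Ifi44, with its single old UMI, without a value.

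The 4 interferon-inducible GTPases, which act on membranes around intracellular pathogens, were 2.67-fold (Ifi47), 4.16-fold (Igtp), 8.35-fold (Irgm1) and 3.36-fold (Gbp2) above old. The remaining group held the member with the highest young level. Ifi27l2a, of the ISG12 family of small membrane proteins, stood at 15.9 CPM (control), 757 CPM (young) and 9.22 CPM (old), which was 82.0-fold above old and 47.6-fold above control. Without monocyte-like cells, which held 32.3% of its young UMIs, Ifi27l2a was 68.1-fold above old and 42.0-fold above control. Without the other blood cell classes as well, Ifi27l2a was 60.3-fold above old and 39.6-fold above control. Over all kept cells it made up 33.1% of all member UMIs of the young library, but 3.71% of those of the old. Rtp4, a receptor transporter protein that restricts flaviviruses, stood at 2.88, 163 and 4.63 CPM, 35.1-fold above old. Xaf1, a pro-apoptotic antagonist of XIAP, stood at 2.74, 59.6 and 2.19 CPM, and Ifi35 at 27.4, 72.4 and 22.2 CPM. Lgals3bp was 35.7-fold above old. Ifi44 had 271 UMIs in the young, 1 in the old and 3 in the control library, a log2 ratio to old of 8.76 with an interval from 6.27 to 14.07. Monocyte-like cells held 57.6% of the young UMIs, and the log2 ratio was 7.59 without them and 7.13 without the other blood cell classes as well.

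In the old and control libraries the sums of the members were close. The old sum was 0.955-fold the control sum (0.939 to 0.972), and 25 members were higher in old and 14 in control, with a median log2 ratio of 0.17 beside -0.08 over 5470 genes. Counting intervals lay above 0 for 16 members, of which Ifit1 is one only through its single old cell, and below 0 for 11. The shares of all genes by sign and by interval were not computed, so nothing is read from these counts about the members. Of 8 members that reached 10 CPM in old or control cells, none was 1.5-fold higher in old, beside 5.37% of all genes, and 2 were 1.5-fold higher in control, beside 8.78%. These 2 were Bst2 (log2 old over control -1.10, interval -1.20 to -0.99) and Ifi27l2a (-0.78, -0.90 to -0.67). Both reached 10 CPM only through the control library (old levels 9.98 and 9.22 CPM) and so had to be higher there. Nothing is therefore read from this count beside the other genes. Isg15, under the minimum, had the log2 ratio -1.14 (-1.30 to -0.98), and Gbp2 had 1.21 (0.73 to 1.71), the highest of the 39.

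Across single cells, most cells of the young library lay above the old and control medians. Summed member UMIs per 10000 UMIs of a cell had a median of 16.5 in young, 2.11 in old and 2.13 in control cells. The 1st percentile of young cells (3.76) lay above the old median, and 20 of 7378 young cells (0.271%) lay at or below it. With every cell thinned to 3000 UMIs, 654 young cells (8.86%) lay at or below the median of thinned old cells, and 0.935% did in unthinned cells without Ifi27l2a. In contrast, 54.9% of young cells (exact 95% Clopper-Pearson interval 53.8 to 56.1) lay above the 99th percentile of old cells, which was 15.3. No member UMI was found in 2 young, 846 old and 1546 control cells. The median young cell had UMIs of 10 members, against 2 in both other libraries. With every cell thinned to 3000 UMIs, at least 5 members were detected in 42.0% of young (40.9 to 43.2), 0.764% of old (0.601 to 0.959) and 0.695% of control cells (0.540 to 0.881), and no cell was left out. After thinning, Isg15 had a UMI in 32.9% of young, 1.46% of old and 2.65% of control cells (63.6%, 3.95% and 5.92% unthinned).

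**Figure D2:**
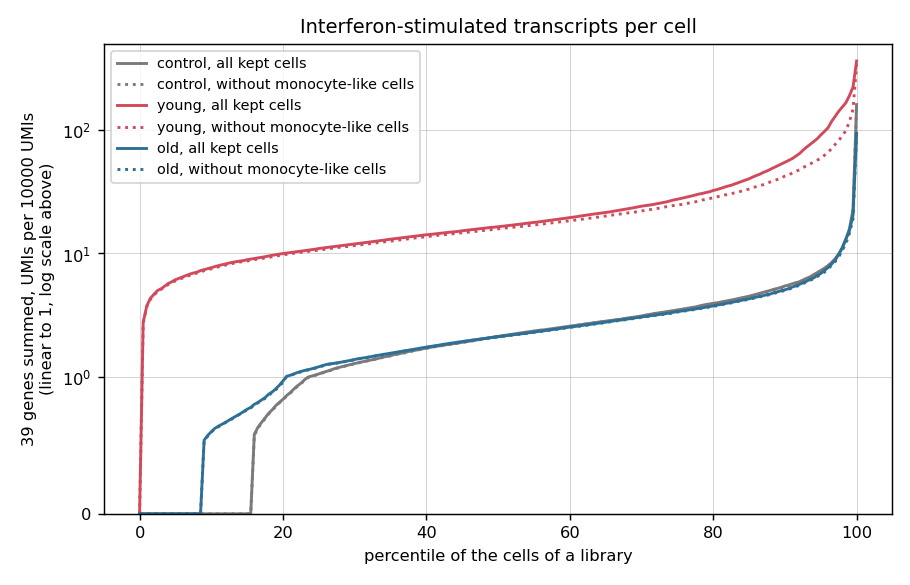
Summed UMIs of the 39 genes per 10000 UMIs of a cell (vertical axis, linear to 1 and log above) against the percentile of the cells of each library, for all kept cells (solid) and without monocyte-like cells (dotted). The young curve runs above the old and control curves over nearly all percentiles, with medians of 16.5 against 2.11 and 2.13, and the curves with and without monocyte-like cells part toward the high end.

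The transcripts were nevertheless not spread evenly over young cells. If UMIs of a gene were spread over cells in proportion to their depth, a given share of cells would hold at least 1. Without monocyte-like cells the observed share was between 0.771 (Ifit3) and 1.01 (Oas2) times this even share, with a median of 0.939 over the 39 members, and 17 members were at 0.95 or more. Irf9 was found in 31.9% of cells where an even spread gives 32.8%, and Oas1a in 51.8% where it gives 54.8%. Ifit1 was found in 22.3% where an even spread gives 28.9%, and Isg15 in 62.2% where it gives 72.4%. Relative to the even spread, the variance was over 2-fold for 7 members, namely Ifi27l2a, Bst2, Isg15, Gbp2, Ifit3, Ifit1 and Rsad2, with 17.0-fold for Ifi27l2a and 2.26-fold for Ifit1. Up to 137 UMIs of Ifi27l2a and 27 of Ifit1 were counted in a single cell. The variance of Oas1a, Irf9 and the 3 RNA sensors was 1.06-fold to 1.17-fold the even one. Without the other blood cell classes as well, the highest variance of a member was 11.8-fold, and 7 members were over 2-fold. Both measures depend on the level of a gene, which differs between these members. They were not taken over all genes, so whether the members differ from other genes in spread was not tested and nothing is read from these counts.

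Within bands of Mpo the correlation of a member with the others was low for most members. Over 3514 young cells with Mpo from 2 to under 10 UMIs per 10000 (monocyte-like and other blood cells left out), the Pearson correlation of a member with the sum of the others had a median of 0.20 over 35 members with at least 100 UMIs, from 0.03 (Ifit2) to 0.45 (Isg15). Isg15 and Rtp4 correlated at 0.31 there, and the variance of the summed members was 9.72 times that of an even spread. The median correlation was 0.19 with Mpo under 2 and from 10 to under 50, and 0.11 at 50 or more, where the summed variance was 3.43 times the even one. These cells come from 1 library and share its depth, and the values describe sparse counts.

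Mpo encodes myeloperoxidase of the azurophil granules, made by promyelocytes and switched off later, so bands of Mpo order the cells from early (50 or more UMIs per 10000) to later precursors (under 2). Without monocyte-like cells, the 39 genes summed to 2274 CPM in young cells with Mpo under 2, 2087 CPM from 2 to under 10, 1389 CPM from 10 to under 50 and 1449 CPM at 50 or more. The old sums in the same bands were 263, 241, 227 and 262 CPM, and the control sums 261, 253, 241 and 272 CPM. The young sum was therefore 8.65-fold the old one in the lowest band and 5.52-fold (5.32 to 5.73) in the top band. Ifi27l2a alone made up 35.5% of the young member UMIs in the lowest band and 12.2% in the top band. The change of the sum over the bands thus rests in large part on this gene, and the bands were not summed without it. Without the other blood cell classes as well, the young sums were 2086, 1969, 1361 and 1440 CPM. The young sum was then 7.95-fold the old one in the lowest band and 5.49-fold in the top band. Over all kept cells and with a limit of 1.5-fold, 31 of 32 members tested were higher in young than in old with Mpo under 2 (19.7% of all genes), 30 of 31 from 2 to under 10 (14.6%), 27 of 27 from 10 to under 50 (9.73%) and 27 of 28 at 50 or more (9.93%). As in the whole libraries, members that reached 10 CPM only through young cells had to be higher there. Nothing is therefore read from these counts beside the other genes. Without monocyte-like cells, 38 of 39 members were above the old level in each of the 4 bands. Dtx3l was above it with Mpo under 2 and from 2 to under 10 and below it in the upper bands. In the upper bands its log2 intervals held 0 (-0.51 to 0.36 and -0.56 to 0.10). For 37 members the interval lay above 0 in each band, with Mx1 at 7 young UMIs against 1 old in the top band. The members were chosen for levels above the old library, and the shares over all genes were not computed. Nothing is read from these 2 counts either. The share of young cells above the 99th percentile of old cells was 56.4%, 59.8%, 88.5% and 91.8% from the lowest to the top band. This percentile was itself lower in the upper bands (16.7, 14.7, 6.96 and 7.20 per 10000).

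**Figure D3:**
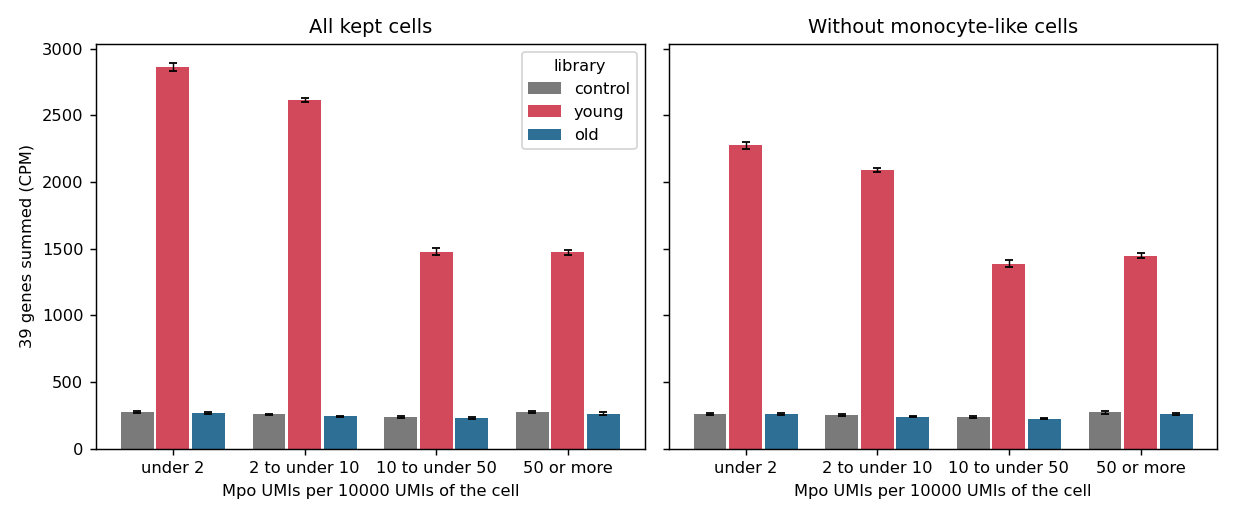
Summed level of the 39 genes in CPM by band of Mpo UMIs per 10000 UMIs of the cell, in the control, young and old libraries, for all kept cells (left) and without monocyte-like cells (right). Bars start at 0 and carry exact 95% Poisson intervals for counting error. Each young bar, from 1389 to 2274 CPM in the right panel, exceeds the control and old bars, which lie between 227 and 272 CPM there.

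Single members followed Mpo in different directions in the young library. Of the 39, 21 were lower in the top than in the lowest band, 7 were higher, and for 11 the counting interval held 0. Of the 32 members that reached 10 CPM in either band, 18 were lower and 7 higher by interval, beside 15.9% lower and 69.2% higher of all 6376 genes tested the same way. The median log2 ratio of top over lowest band was 0.58 over these genes and -0.29 over the 39 members. Ifi27l2a stood at 808 CPM with Mpo under 2, at 669 and 263 CPM in the middle bands and at 176 CPM at 50 or more, 4.59-fold lower. The other blood cell classes are still in these values. Ifi27l2a made up 35.5% of member UMIs in the lowest band and 12.2% in the top band. Without those classes its shares were 32.1% and 11.9%. Slfn5 and Rsad2 were 3.39-fold and 3.25-fold lower in the top band, and Ifit3 2.44-fold lower. The opposite order was seen for Lgals3bp (13.9 to 39.9 CPM, 2.87-fold higher), Ifi47 (22.8 to 60.5 CPM, 2.65-fold higher), Isg20 (1.85-fold), Bst2 (1.64-fold), Dtx3l (1.58-fold), Ifih1 (12.7 to 17.8 CPM) and Irgm1 (1.30-fold). Oas1a stayed within 81.0 to 84.5 CPM in the 4 bands. Bst2 and Ifi47 were also higher in the top than in the lowest band of the control library (60.5 against 8.17 CPM and 29.7 against 6.39 CPM) and of the old library (39.4 against 3.62 CPM and 33.5 against 9.99 CPM). Lgals3bp, Irgm1, Dtx3l and Ifih1 were higher in the top band of both these libraries as well. Isg20 was not (8.47 against 8.98 CPM in control, 9.03 against 9.38 CPM in old cells). Samd9l was lower in the top than in the lowest band of each library. It stood at 42.0 against 79.0 CPM in young, 16.9 against 59.7 in control and 18.0 against 60.2 in old cells. Ifi27l2a was also lower in the top band of the control (5.97 against 21.2 CPM) and old libraries (1.41 against 12.6 CPM).

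**Figure D4:**
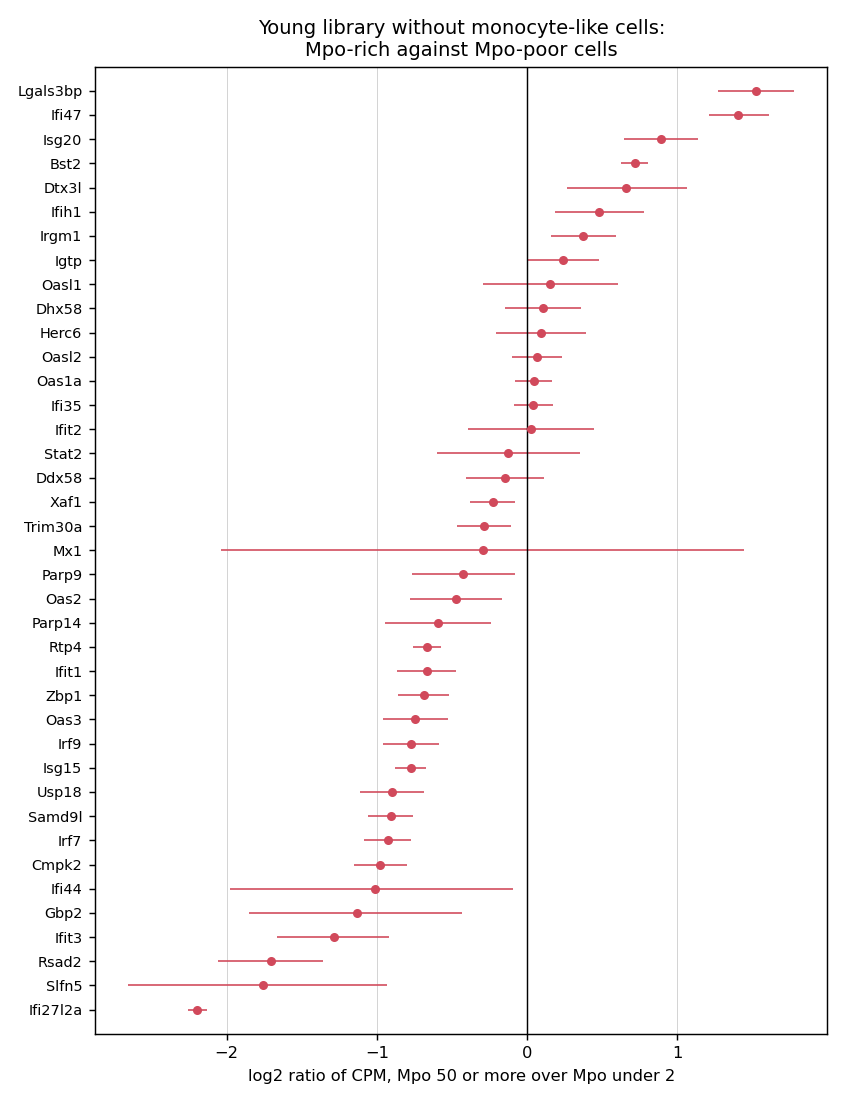
Log2 ratio of the level in young cells with Mpo of 50 or more over that in young cells with Mpo under 2 (monocyte-like cells left out), for each of the 39 genes, with exact 95% intervals for counting error and a line at 0. The ratios run from -2.20 for Ifi27l2a to 1.52 for Lgals3bp, with 21 intervals below 0, 7 above 0 and 11 that hold 0.

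Monocyte-like cells carried high levels in each library. The 39 genes summed there to 9428 CPM in the young library (9331 to 9525, 429 cells), 1682 CPM in the control (1547 to 1824, 38 cells) and 824 CPM in the old library (757 to 896, 63 cells). Within these cells the young sum was 11.4-fold that of the old and 5.61-fold that of the control library. In the young library, Ifi27l2a stood at 4735 CPM, Bst2 at 664 CPM, Irf7 at 515 CPM and Isg15 at 410 CPM in monocyte-like cells. Cells with 5 or 6 UMIs of the rule, next to its limit, numbered 9 and 10 in the young library. The other classes in the young library summed to 8976 CPM in 149 dendritic-like cells, 5898 CPM in 130 B-progenitor-like cells, 3506 CPM in 62 NK and T-like cells and 1836 CPM in 35 basophil and mast-like cells, against 466, 634, 338 and 294 CPM in 23, 8, 1 and 12 old cells. All 5 classes were thus above the same class in the old library, with counting intervals of the ratio from 4.04 upward. The old NK and T-like class was 1 cell. Control cells of the dendritic-like, B-progenitor-like, NK and T-like and basophil and mast-like classes (22, 16, 2 and 13 cells) summed to 1605, 898, 1031 and 333 CPM. The young sums were 5.59-fold, 6.57-fold, 3.40-fold (1.72 to 7.89) and 5.51-fold these control sums. Without monocyte-like cells the young sum over all cells was 1900 CPM, 7.74-fold above old, and without the other classes as well 1801 CPM, 7.35-fold above old. Among B-progenitor-like cells 66.5% of member UMIs were Ifi27l2a, compared with 15.4% among basophil and mast-like cells.

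Levels in Mpo-rich young cells were set beside those in the classes. In 1232 young cells with Mpo of 50 or more, monocyte-like cells left out, the 3 genes of the monocyte-like rule stood at 1.29% to 2.52% of their level in monocyte-like cells. The classes were picked for UMIs of their rule genes and the other cells for lacking them, so these low shares are partly fixed by the rule. The members stood at 1.54% (Mx1) to 97.7% (Isg20) of their monocyte-like level, with a median of 30.2%, and 32 of 39 were at 10% or more. The same shares were not computed over all genes, so nothing is read from this count or median about the members as a set. Rtp4 stood at 115 against 249 CPM (46.0%), Oas1a at 84.3 against 187 CPM (45.2%) and Isg15 at 90.4 against 410 CPM (22.0%), but Ifi27l2a at 176 against 4735 CPM (3.72%). The lowest shares beside Mx1 (0.475 CPM) were those of Slfn5 (1.15 CPM, 2.19%) and Ifi44 (1.15 CPM, 2.85%). Against B-progenitor-like and dendritic-like cells, each left out of the Mpo-rich cells in turn, the members had median shares of 58.8% and 33.5%. Free RNA can give UMIs in cells that do not express a gene, and its part in these levels was not tested.

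**Figure D5:**
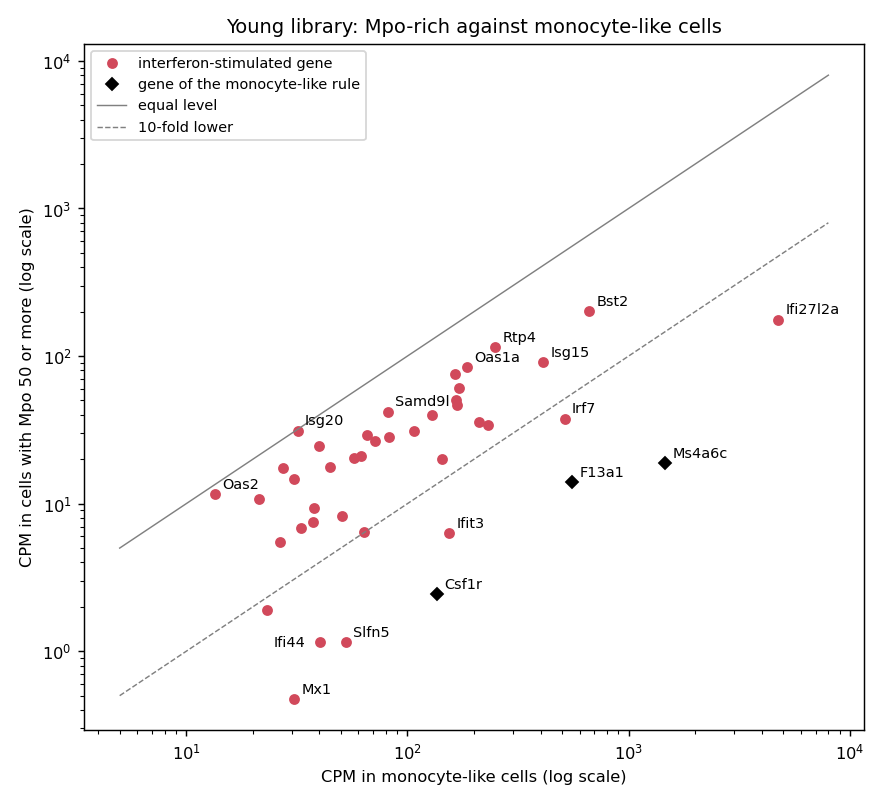
Level in young cells with Mpo of 50 or more, monocyte-like cells left out (vertical axis, CPM, log), against the level in young monocyte-like cells (horizontal axis, CPM, log), for the 39 interferon-stimulated genes (circles) and the 3 genes of the monocyte-like rule (diamonds), with lines for equal levels and for a 10-fold lower level. The diamonds lie below the 10-fold line, at 1.29% to 2.52% of the monocyte-like level, while 32 of the 39 circles lie on or above it. The share of all genes on or above this line was not computed.

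Upstream steps of the pathway were described from lists beside the 39 genes, as levels in the order control, young and old. Of 21 interferon genes, 18 had no UMI in any library, and all 21 together had 0 UMIs in the control, 9 in the young and 10 in the old library. The 7 Ifng UMIs were in the young and the 9 Ifnz and 1 Ifnk UMIs in the old library, which with 2 young Ifnz UMIs is the whole count. All 7 Ifng UMIs lay in monocyte-like cells or the other blood cell classes. The receptor gene Ifngr1 (103, 127 and 107 CPM) and the phosphatase gene Ptpn6 (151, 167 and 188 CPM) had the highest young levels of the receptor and JAK-STAT list, with folds of young over old of 1.18 and 0.884. Ifnar1 stood at 5.63, 9.06 and 7.07 CPM and Ifnar2 at 33.5, 41.1 and 39.7 CPM. Without monocyte-like cells and the other blood cell classes, Ifnar1 stood at 5.40, 6.94 and 6.96 CPM.

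In the IRF family outside the members, 2 of 5 genes tested were 1.5-fold higher in young than in old, and 3 of 5 in young than in control, beside 14.7% and 6.62% of all genes. These were Irf5 and Irf8, with Irf1 (9.99 and 17.5 CPM in control and young) against control. In these comparisons each of them reached 10 CPM only through the young library and so had to be higher there. Irf8, which directs monocytes and dendritic cells, stood at 3.00, 40.7 and 1.61 CPM (control, young, old). Its young level was 11.99 CPM and its old level 0.405 CPM without the blood cell classes. The log2 ratio of young over old for Irf8 was 4.66, or 4.89 without these classes. Irf5 stood at 10.6 CPM in the young library, but at 1.72 CPM without the classes, which is under the minimum of 10 CPM. Its log2 ratio of young over old was 3.35, or 2.15 without them. Irf2 stood at 18.0 CPM in the control and 25.2 CPM in the young library, 1.20-fold above old, and Irf3, a factor of early interferon induction, at 20.9, 21.2 and 18.3 CPM. Among sensing genes, 2 of 7 tested were higher in young than in old (Mb21d1 and Traf3), beside 14.7% of all genes. Of the 7, 1 was lower (Myd88), beside 4.36%. In young against control 1 of 7 was higher (Unc93b1), beside 6.62%. Nothing is read from counts of so few genes. Unc93b1, a chaperone of endosomal Toll-like receptors, stood at 59.4, 106 and 84.2 CPM, Myd88, their adaptor, at 34.9, 30.2 and 57.3 CPM, and Mb21d1 (cGAS) at 14.1, 18.8 and 8.39 CPM. In the comparison with old, Mb21d1 reached 10 CPM only through the young library.

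Of further type I interferon targets, 35 of 44 tested were higher in young than in old and 1 was lower, beside 14.7% and 4.36% of all genes. Against control 38 of 43 were higher, beside 6.62%, and none lower, beside 1.59%. Their median log2 ratio was 1.59 over old and 1.38 over control, against 0.15 and 0.06 over all genes. Only 23 genes of this list reached 10 CPM in old or control cells. The others tested reached it only through the young library and so had to be higher there. The 23 cover both libraries together, so fewer may have reached it in each one. The medians are over the genes tested and carry the same limit. Nothing is therefore read from these counts and medians beside all genes. The 3 genes of the list with the highest young levels were Ly6e (87.0, 460 and 124 CPM), Slfn2 (276, 382 and 375 CPM) and Ifi27, with 211 CPM in the young and 58.7 CPM in the old library. The gene lower in young than in old was Trim30b, at 4.76, 6.77 and 11.7 CPM. Of targets linked to interferon gamma only Gbp7 reached 10 CPM, at 3.46, 18.8 and 2.54 CPM. Irgm2 stood at 1.30, 7.27 and 1.20 CPM and Gbp3 at 1.11, 4.56 and 0.786 CPM. These lists were written with earlier results of the data known.

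The genes whose pattern was most like that of the members were ranked by the smaller of their log2 ratios of young over old and of young over control, over the 3 libraries without the blood cell classes. Among all 5434 genes ranked, the first 10 were members, as were 14 of the first 20 and 22 of the first 50. The members were chosen for this same pattern, so their high places were largely fixed in advance and nothing is read from them. Outside all lists the first 10 were Ly6d, H2-Q6, Hbb-bt, Pf4, H2-Q7, S100a10, Ctss, Car2, Hba-a1 and Hbb-bs. Ly6d, a B-lymphoid surface gene, stood at 1.69, 18.0 and 0.0675 CPM in control, young and old cells. H2-Q6 and H2-Q7, of the MHC class I, stood at 1.65, 14.1 and 0.718 CPM and at 7.87, 41.4 and 4.45 CPM. The hemoglobin gene Hbb-bs stood at 90.3, 381 and 18.3 CPM. Over 6684 young cells the Pearson correlation of these 10 genes with the summed members ran from 0.01 (Pf4) to 0.25 (Ctss), and that of Hbb-bs was 0.04.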

How the data were processed

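The authors sequenced CD133+ bone marrow cells with 10x Chromium 3' v2 chemistry and deposited UMI counts per gene and cell, not normalized. Per the labels, STAR and Cell Ranger 2.1.0 were used with mm10. Whether strand entered the counting is not given in the sources used here. The design text of the series calls the cells intestinal, whereas the labels give bone marrow.

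Cells with at least 200 genes, at most 20% mitochondrial UMIs and a UMI count within the 5th to 95th percentile (young and old together, control alone) were kept, following the study's methods. Doublets were not called. UMIs were summed per library and given per 1000000 UMIs (CPM). With 1 library per condition no test was made. Intervals are exact at 95% (Poisson, Clopper-Pearson, conditional binomial) and cover counting error only. Genes were counted as higher at 1.5-fold among those with at least 10 CPM in either library. Members and lists were chosen with earlier results of these data known. The count of the receptor and JAK-STAT list and 1 of its genes are not reported here. Full values are given for members with at least 50 CPM in the young library and for all transcription factors and sensors, and of each further list for the 3 highest in the young library. Members named beyond these, Trim30b, Traf3, Irf1, Irf5, Ifnar1 and Ifnar2 were chosen after their values were seen, as was the 0.95 limit on the even share. Other blood cells were those with at least 6 UMIs of a marker rule (NK and T cells, B progenitors, dendritic cells, or basophils with mast cells). The NK and T rule held Nkg7, which marked 2431 to 2787 cells per library, so that it was left out of this rule wherever classes are described, a change made after seeing the data. Promoter letters were searched in the RefSeq table of GRCm38.p6, and positions taken from GENCODE M21, in which all 39 members were found. The ratio and its interval were tested on simulated data. Alternatives changed the cell filter, classes, scaling, minimum and limit of size. Tools were numpy 2.4.6, pandas 2.3.3, scipy 1.17.1 and matplotlib 3.10.9 in Python 3.11.15.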

Additional observations from a re-analysis of the deposited data

How the results depend on the processing

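Under every alternative listed here, all or nearly all members tested were past the limit in the young library over old and over control. This was largely fixed in advance, since the members were chosen on these values and most passed the minimum only through the young library. With at least 50 CPM, 10 of 11 members tested were higher in young than in old, 10 of 11 were higher than in control, and 0 differed between old and control, since none was tested. The highest member in the old and control libraries, Samd9l, stood at 48.6 and 49.4 CPM. All 11 thus reached 50 CPM only through the young library and had to be higher there. Without a minimum 11 of 39 members differed between old and control, and with a 2-fold limit 1 did. The 11 include Mx1 and Ifi44, with 8 and 1 UMIs in the old and 4 and 3 in the control library. The 11 went in both directions, with Gbp2 higher in old and Isg15 higher in control among them. The shares over all genes at these settings are not given here, so nothing is read from these counts. The log2 ratio of the summed members, young over old, was 3.20. It was 3.28 without the limit on UMI counts, 2.95 without monocyte-like cells, 3.07 without the classes as first planned, 2.88 with Nkg7 left out of that rule (added after seeing the data), 2.92 as UMIs per cell, 3.16 with the median gene ratio set to 1 and 3.07 with Mpo bands weighted equally. For young over control (3.14) the values were 3.19, 2.90, 3.02, 2.83, 3.18, 3.13 and 3.01 in this order. The share of young cells above the 99th percentile of old cells (54.9%) was 56.7% without the limit on UMI counts, 56.6% without the classes as first planned, 45.9% with cells thinned to 3000 UMIs, 52.5% against control cells and 47.9% without Ifi27l2a. The young over control ratio of Dtx3l turned from log2 0.10 to -0.02 without monocyte-like cells, -0.05 with bands weighted equally and -0.07 without all classes; no other member changed sign. The cause of these shifts was not tested. No paired analysis was possible because each condition is 1 library. Depth limits Mx1 and Ifi44, with 8 and 1 UMIs in the old library.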
